A study of Mus musculus with 8 samples.

Results

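Il1b, Il1a, Il1rn, Il18, Il18bp, Tnf, Il10 and Il12b, the 8 genes described here, encode inflammatory cytokines of myeloid cells and 2 of their natural inhibitors. They were taken by name from the 17921 genes of the count table and read in each cell type that the authors assigned, with counts summed per mouse. The grafts were left lungs of male mice sampled 1 month after transplantation without immunosuppression. In the B6→B6 group, 5 wild-type C57BL/6 (B6) recipients had received a B6 lung. In the HLA→B6 group, 3 B6 recipients had received the lung of a donor transgenic for the human class I molecule HLA-A2.1 on the same C57BL/6 background. The recipients of both groups were B6 mice, each graft was 1 mouse and 1 library, and about 10000 cells were loaded per library. The comparison of the 2 groups asks how the cells of a graft mismatched for HLA differ from those of a syngeneic graft, in a mouse model of bronchiolitis obliterans syndrome (BOS).

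IL-1β and IL-18 are made as precursors that lack a signal peptide, and caspase-1 cleaves both after an inflammasome has assembled. IL-1α is active at the same receptor without that step. The IL-1 receptor antagonist, encoded by Il1rn, occupies the receptor without signalling, and the IL-18 binding protein, encoded by Il18bp, is a soluble decoy that holds IL-18 away from its receptor. TNF is an early inflammatory signal of macrophages and T cells, IL-10 restrains macrophages and dendritic cells, and the p40 chain encoded by Il12b is shared by IL-12 and IL-23. In the lung, resting alveolar macrophages are a known store of Il18 mRNA, whereas Il1b mRNA is abundant in neutrophils and monocytes.

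The 8 libraries held 20778 cells, with 868 to 6544 cells and 1669076 to 12445769 unique molecular identifiers (UMIs, each taken as 1 captured mRNA molecule) per mouse. Levels are given as CPM, the UMIs of a gene per 1000000 UMIs of that cell type in that mouse, for mice with at least 10 cells of the type. Libraries shared cell barcodes unevenly. B6→B6 mouse 2 and HLA→B6 mouse 2 had 160 barcodes in common, B6→B6 mice 1 and 2 had 112, and B6→B6 mouse 1 and HLA→B6 mouse 2 had 70, against 0 to 40 in every other pair. Cells labelled alveolar macrophage were affected unevenly: 59 of the 159 such cells of B6→B6 mouse 1 and 148 of the 284 of B6→B6 mouse 2 repeated a barcode of another library and were not clearly its deepest cell, against 2 to 12 cells in each other mouse. Cells labelled myeloid cell were affected in the same mice, 26 of 42 in B6→B6 mouse 1 and 22 of 69 in B6→B6 mouse 2, against at most 11 in any other mouse. The results for Il18 and Il18bp, and the levels of Il1b and Il12b in cells labelled myeloid cell, are therefore given with and without such cells. The 5 libraries of one group and the 3 of the other allowed 56 splits, and the smallest exact permutation p was 0.0357.

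The labels were checked against marker genes. Cells labelled leukocyte carried the neutrophil list (S100a8, S100a9, Retnlg, Cxcr2, Csf3r, Mmp9, Ly6g and Mmp8) at a mean summed level of 178149 CPM in B6→B6 and 176985 CPM in HLA→B6 grafts, so they are described below as neutrophil-marker cells labelled leukocyte. Cells labelled myeloid cell carried all 10 dendritic cell markers. In these cells 6 of 7 T cell markers also passed the filter on counts, as did 4 of 7 classical and 4 of 7 patrolling monocyte markers. That label is therefore not read as dendritic cells alone. Cells labelled alveolar macrophage differed between the groups. The 10 alveolar macrophage markers summed to 11637 CPM in B6→B6 grafts (range 10850 to 13298) and to 3033 CPM in HLA→B6 grafts (range 423 to 4610). Of these 10 genes, 7 (70%) fell in HLA→B6 grafts and none rose, where 712 of all 5798 genes tested were called (12.3%), 343 falling and 369 rising. Among the 7 were Marco, a scavenger receptor (log2 fold change -3.68, edgeR adjusted p = 0.0042), and Siglecf (-1.95, edgeR adjusted p = 0.021). The 6 interstitial macrophage markers summed to 5860 CPM (range 844 to 11167) against 27295 CPM (range 24186 to 32650). Only Ms4a7 of that list passed the test as a single gene (log2 fold change 2.64, edgeR adjusted p = 0.041), 16.7% of the 6 against 12.3% of all genes. For this reason the label "alveolar macrophage" names the authors' cluster here and not a uniform cell type.

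Of the 8 genes, Il18 and Il18bp were the 2 whose change passed the test in cells of that label, and the 250 bases before their RefSeq start sites (GRCm38.p6) are shown because the 2 genes moved in opposite directions under the same label. Il18 lies on the plus strand of chromosome 9 (gene body chr9:50554827-50581840) and its window is chr9:50554450-50554699. Il18bp lies on the minus strand of chromosome 7 (gene body chr7:102014885-102018690) and its window is chr7:102018233-102018482. The gene bodies are from GENCODE, whose starts differ from the RefSeq starts used for the windows. The Il18bp window therefore lies inside the gene body given. The Il18 window ends short of the start of its gene body. Capitals mark a match to the C/EBP letters TTGCNNAA.
Il18: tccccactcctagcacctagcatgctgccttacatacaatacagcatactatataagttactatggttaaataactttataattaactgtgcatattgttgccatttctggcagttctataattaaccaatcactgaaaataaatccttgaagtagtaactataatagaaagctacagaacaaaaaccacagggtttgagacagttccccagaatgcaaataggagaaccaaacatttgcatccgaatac
Il18bp: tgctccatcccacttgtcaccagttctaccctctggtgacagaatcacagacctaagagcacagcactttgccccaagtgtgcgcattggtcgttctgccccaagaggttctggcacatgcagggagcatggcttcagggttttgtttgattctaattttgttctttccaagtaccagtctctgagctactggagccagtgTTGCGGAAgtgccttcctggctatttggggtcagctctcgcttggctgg
The single capital stretch starts 49 bases before the RefSeq start of Il18bp. Matches were searched on both strands for TTGCNNAA, the STAT site TTCNNNGAA (GAS), the core of an interferon-stimulated response element, GAGGAA (the PU.1 core) and the kappaB motif. The C/EBP letters occur in 9.56% of all 32851 windows of this length, the GAS letters in 7.02%, the interferon element core in 2.98%, the PU.1 core in 23.3% and kappaB in 7.25%. The Il18 window held none of the 5. Among the windows of the other members, the PU.1 core was found before Il1a, Tnf and, at 2 places, Il12b.

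Each gene had its own distribution over cell types. Of the 6437 Il1b UMIs in the table, 4619 lay in neutrophil-marker cells and 1141 in monocytes. Il1rn was shared by alveolar macrophages (932 of 1447 UMIs), neutrophil-marker cells (280) and monocytes (185). Il18 lay mostly in alveolar macrophages (1634 of 1906 UMIs). Pooled over mice, so did Il18bp (1169 of 1453 UMIs, 987 of them from HLA→B6 mouse 2) and Il1a (96 of 139 UMIs). Per mouse, lung structural cells held more of the Il18bp UMIs than alveolar macrophages in B6→B6 mice 3, 4 and 5 (52.4, 50 and 57.1% against 33.3, 16.7 and 42.9%), and on average more of the Il1a UMIs of B6→B6 mice (56.8% against 38.0%). Tnf was divided among alveolar macrophages (97 of 308 UMIs), T cells (93) and monocytes (61), and T cells had the highest mean share per mouse (32.4%, against 28.0% for alveolar macrophages). Il10 was found in T cells (43 of 114 UMIs) and plasma cells (39), where 121 of the 172 plasma cells came from HLA→B6 mouse 1. Of the 100 Il12b UMIs, 91 came from cells labelled myeloid cell. Since the types were clustered from these same counts, the order of types is a description without a test. Il10, Il12b, Il1a and Tnf were too rare for a test in most types.

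**Figure D1:**
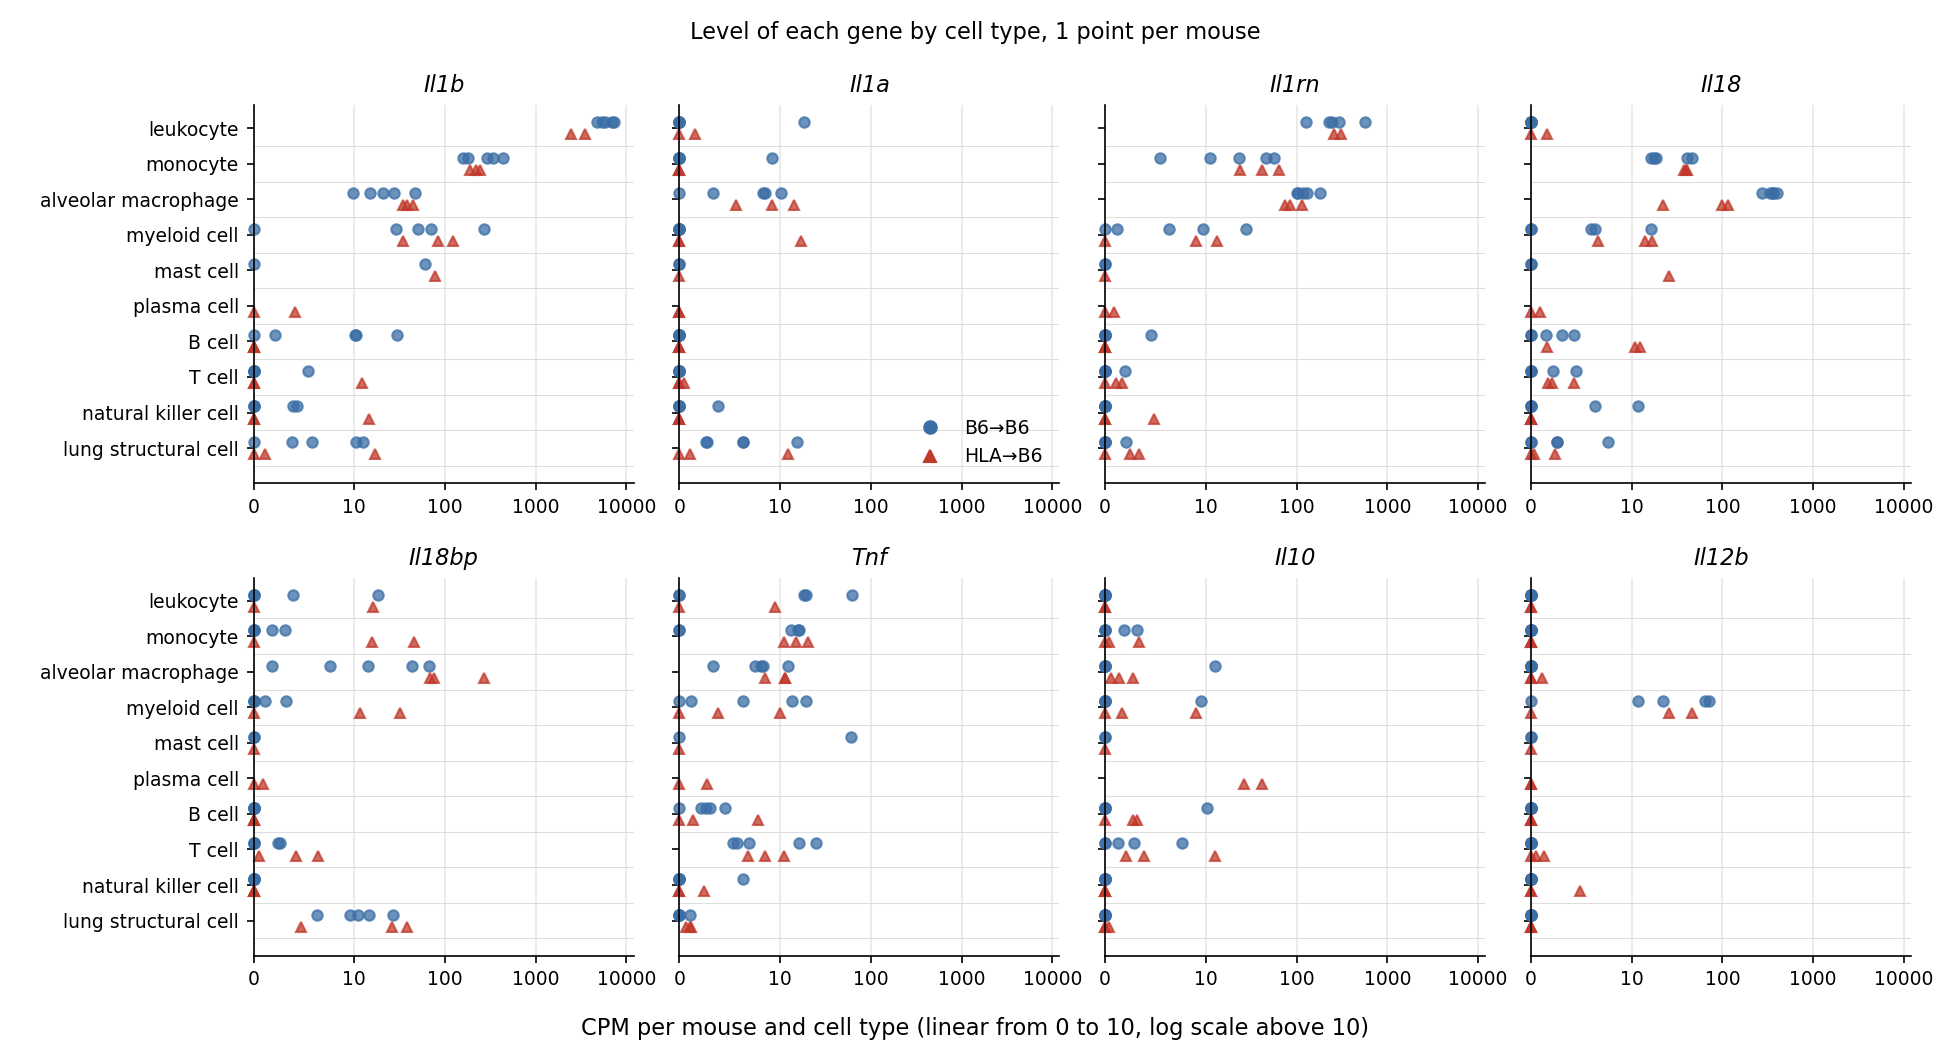
Level of each gene (CPM, linear up to 10 and logarithmic above) in each cell type with at least 10 cells in a mouse. Circles are B6→B6 mice and triangles HLA→B6 mice. Il1b was highest in cells labelled leukocyte, at 2476 to 7372 CPM, Il18 in alveolar macrophages, and Il12b was almost confined to cells labelled myeloid cell, with 91 of its 100 UMIs.

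Il1b had the most UMIs of the 8 genes. In neutrophil-marker cells the B6→B6 mice 1 to 5 had 4681, 5842, 7372, 6899 and 5426 CPM, and HLA→B6 mice 1 and 2 had 2476 and 3509 CPM. HLA→B6 mouse 3 had 5 such cells and did not enter. Its 33 Il1b UMIs gave 6122 CPM, a value inside the B6→B6 range. Without that mouse the groups did not overlap, but the fitted log2 fold change of -1.01 (SE 0.25) had an adjusted p of 0.878 by edgeR, with 0 of 913 genes called (0%), 47 genes at an unadjusted p under 0.05, and an unadjusted p of 0.0033 for Il1b itself. The summed neutrophil markers of these cells ranged from 135389 to 227387 CPM in B6→B6 and from 157601 to 196369 CPM in HLA→B6 mice. Of the 1390 cells, 77.8% held an Il1b UMI at a median of 678.5 UMIs per cell, against 0.493% of T cells at a median of 1648 UMIs.

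In monocytes Il1b stood at 432, 337, 177, 294 and 158 CPM in B6→B6 mice and at 221, 241 and 189 CPM in HLA→B6 mice. The 3 HLA→B6 values lay inside the B6→B6 range, and the log2 fold change was -0.36 (SE 0.27, edgeR adjusted p = 0.999), in a comparison that called 1 of 4352 genes (0.023%). All shares of cells at 1000 UMIs leave out cells under 1000 UMIs, which kept 1833 of the 1968 monocytes. After each kept cell was thinned to 1000 UMIs, 18.0% ± 4.47 (SD, n = 5) of B6→B6 and 15.9% ± 2.46 (SD, n = 3) of HLA→B6 monocytes kept an Il1b UMI (exact permutation p = 0.536, two-sided, 0.804 adjusted over 3 types). The level in neutrophil-marker cells was above that of monocytes in each of the 7 mice compared, while the ranges of monocytes and of cells labelled myeloid cell overlapped.

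Alveolar macrophages held little Il1b, at 9.89, 27.1, 46.8, 20.7 and 15.1 CPM in B6→B6 and at 38.4, 34.6 and 44.8 CPM in HLA→B6 mice. The B6→B6 mouse with 46.8 CPM exceeded all 3 HLA→B6 mice, and the log2 fold change of 0.88 (SE 0.35) did not pass (edgeR adjusted p = 0.118). Without that mouse the adjusted p was 0.0345. In cells labelled myeloid cell, Il1b varied from 0 to 272 CPM among B6→B6 mice and from 34.6 to 121 CPM among HLA→B6 mice (log2 fold change -0.25, edgeR adjusted p = 0.999, 0 of 4395 genes called, 0%). Without cells that share a barcode the ranges were 0 to 269.5 CPM and 35.3 to 124.6 CPM. Among all cells of that label, 28 of the 58 cells with an Il1b UMI also had one of Cd209a, a marker of conventional type 2 dendritic cells and monocyte-derived cells, against 112 of the 697 cells without (48.3% against 16.1%, at medians of 5604 and 3188 UMIs).

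Il1a, the second IL-1 agonist, was rare. Its level in alveolar macrophages was 0 to 10.2 CPM in B6→B6 and 5.59 to 14.2 CPM in HLA→B6 mice, too low for the filter on counts. Of the 37 Il1a UMIs in lung structural cells, 35 lay in 1 cluster of 529 cells, at 32.9 CPM. A larger cluster of 1347 cells held 1 Il1a UMI. The authors named both clusters epithelial cells, and these names were not checked against marker genes here. The share of a mouse's Il1a UMIs that lay in alveolar macrophages was 38.0% ± 26.9 (SD, n = 5) in one group and 74.8% ± 7.43 (SD, n = 3) in the other, higher in HLA→B6 mice without overlap (exact permutation p = 0.0357, the smallest possible), and did not pass after adjustment over the 8 genes (0.143). As few as 1 Il1a UMI per mouse lies behind some of these shares.

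Il1rn, which encodes the IL-1 receptor antagonist, could be tested in all cells together, alveolar macrophages, neutrophil-marker cells and monocytes, and passed in none of them. In alveolar macrophages it stood at 119, 104, 102, 131 and 183 CPM in B6→B6 and at 85.3, 73.8 and 115 CPM in HLA→B6 mice, so that the highest HLA→B6 mouse lay within the B6→B6 range (log2 fold change -0.30, SE 0.22, edgeR adjusted p = 0.395). Of these 2494 cells, 2010 had at least 1000 UMIs. Among them the share with an Il1rn UMI after thinning to 1000 UMIs did not overlap, at 12.98, 11.3, 12.6, 12.5 and 17.6% in B6→B6 and 8.51, 5.80 and 9.38% in HLA→B6 mice. It is given as a description, without a test. In neutrophil-marker cells the levels were 562, 245, 230, 293 and 128 CPM against 259 and 311 CPM (log2 fold change 0.03, SE 0.44, adjusted p = 1.000 by edgeR). Monocytes held 5.44 to 56.2 CPM in B6→B6 and 23.6 to 64.1 CPM in HLA→B6 mice (log2 fold change 0.81, SE 0.51, edgeR adjusted p = 0.999). Of the 234 neutrophil-marker cells with an Il1rn UMI, 80.8% also had Il1b, against 77.2% of the 1156 without, at medians of 737 and 665 UMIs per cell.

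The log2 ratio of Il1rn to Il1b UMIs (0.5 added to each) sets antagonist against agonist within a library. It was positive in alveolar macrophages and negative in monocytes of every mouse. In alveolar macrophages its B6→B6 mean was 2.51 ± 1.01 (SD, n = 5) and its HLA→B6 mean 1.19 ± 0.13 (SD, n = 3), with overlapping ranges (exact permutation p = 0.107, two-sided, 0.286 adjusted over 8 ratio tests). Over all cells of the graft the means were -1.97 ± 1.52 (SD, n = 5) and -1.38 ± 1.02 (SD, n = 3), with an exact permutation p of 0.536.

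Il18 fell and Il18bp rose in the cells labelled alveolar macrophage of HLA→B6 grafts, 2 of the 4 members tested there, in a comparison in which edgeR called 712 of 5798 genes (12.3%). For Il18 the B6→B6 mice 1 to 5 had 366, 273, 334, 362 and 402 CPM, and the HLA→B6 mice 1 to 3 had 100.2, 22.1 and 115 CPM. Every HLA→B6 mouse was below every B6→B6 mouse. The log2 fold change was -2.03 (SE 0.41, edgeR adjusted p = 0.0133), and it stayed past the threshold under every alternative tried, between -2.40 and -1.51. Without the cells that share a barcode, the B6→B6 values were 332 to 404 CPM and the HLA→B6 values 22.2 to 111 CPM. At 1000 UMIs per cell, 29.0% ± 3.37 (SD, n = 5) of B6→B6 and 8.37% ± 5.17 (SD, n = 3) of HLA→B6 alveolar macrophages kept an Il18 UMI, against 0.115% and 0.328% of T cells. These shares describe the 2010 of the 2494 alveolar macrophages that had at least 1000 UMIs, and not all cells of the label. Unthinned, 34.5% of the alveolar macrophages (median 2791.5 UMIs) and 0.394% of the T cells (median 1648 UMIs) had one.

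Il18bp had 42.9, 66.8, 14.2, 1.80 and 7.54 CPM in the alveolar macrophages of B6→B6 mice 1 to 5, and 68.2, 268.7 and 75.5 CPM in those of HLA→B6 mice 1 to 3. The groups were separated by a narrow gap, between 66.8 and 68.2 CPM, and HLA→B6 mouse 2 alone held 987 of the 1169 UMIs. The log2 fold change was 2.93 (SE 0.83, edgeR adjusted p = 0.0413). Without HLA→B6 mouse 2 it was 1.89 with an adjusted p of 0.248, without B6→B6 mouse 1, 3, 4 or 5 the adjusted p was 0.0692, 0.0789, 0.0696 or 0.0840, and by DESeq2 it was 0.146. The B6→B6 mice with the highest values, 1 and 2, were those whose cells repeated barcodes of HLA→B6 mouse 2. After removal of such cells the B6→B6 values were 0, 15.8, 12.5, 1.82 and 7.62 CPM and the HLA→B6 values 68.5, 269.9 and 76.8 CPM, and the log2 fold change was 4.88 (edgeR adjusted p = 0.0015). The 49 B6→B6 alveolar macrophages with an Il18bp UMI had a median of 711 UMIs, against 2625.5 UMIs for the 1374 without.

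The ratio of decoy to cytokine was then read within each mouse. In alveolar macrophages the log2 ratio of Il18bp to Il18 was -3.05, -2.02, -4.46, -7.48 and -5.52 in B6→B6 mice, and -0.55, 3.60 and -0.59 in HLA→B6 mice. All 3 HLA→B6 ratios were above all 5 B6→B6 ratios, by 5.32 on average (exact permutation p = 0.0357, the smallest possible, 0.143 adjusted over 8 ratio tests). A linked set of libraries was formed from B6→B6 mice 1 to 3 and HLA→B6 mouse 2. B6→B6 mouse 3 shared 40 and 39 barcodes with B6→B6 mice 1 and 2 but 23 with HLA→B6 mouse 2, and HLA→B6 mice 1 and 2, placed in different sets, shared 35. Within this set and within the others, the mean difference was 6.29 (exact permutation within sets, p = 0.0417, the smallest these sets allow). Over all cells of the graft, where the share of each cell type and its level act together, the ratio averaged -3.42 ± 1.35 (SD, n = 5) and 0.72 ± 2.24 (SD, n = 3), a difference of 4.14 (exact permutation p = 0.0357, 0.143 adjusted). Il18bp UMIs outnumbered Il18 UMIs in the sum of 1 mouse, HLA→B6 mouse 2.

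**Figure D2:**
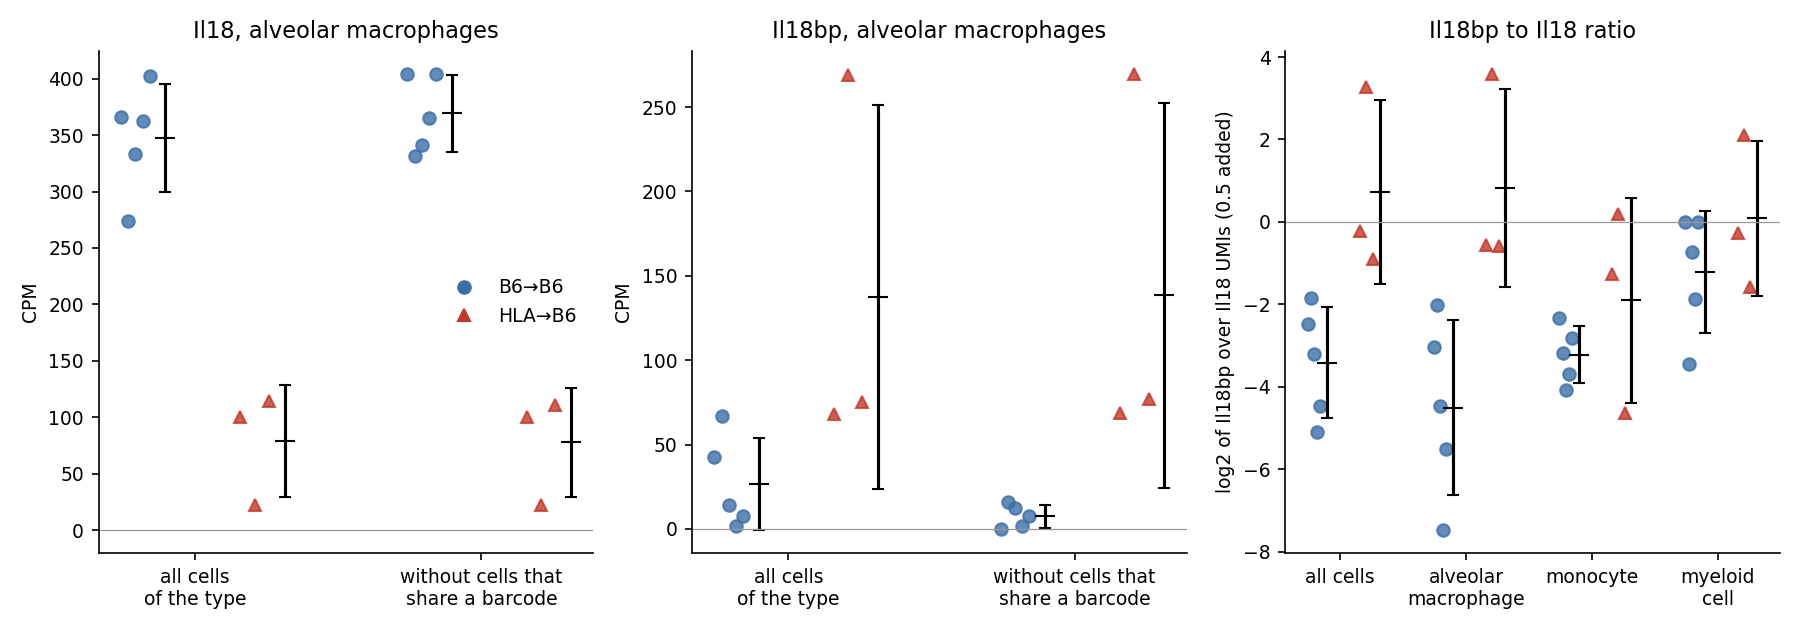
Il18 and Il18bp in cells labelled alveolar macrophage (CPM per mouse, with and without cells that share a barcode with another library), and the log2 ratio of Il18bp to Il18 UMIs in 4 sets of cells. Each point is 1 mouse and bars give mean and SD. HLA→B6 mice lie at 115 CPM or less for Il18 and at 68.2 CPM or more for Il18bp, and the B6→B6 points for Il18bp drop to 15.8 CPM or less without cells that share a barcode.

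Since marker levels of the cells differed between the groups, the cells were divided, after the data had been seen, at 5000 CPM of the 10 alveolar macrophage markers, a list that holds neither Il18 nor Il18bp. The cut gives 2 ranges of a score and not 2 cell types, and 21.1% of the 2494 cells lay between 2500 and 10000 CPM. At or above it were 56.6, 43.3, 75.3, 89.9 and 92.4% of the cells in B6→B6 mice and 37.7, 4.09 and 21.5% in HLA→B6 mice, so that the groups did not overlap. In this upper range the B6→B6 mean of Il18 was 411 ± 28.9 CPM (SD, n = 5) and the HLA→B6 mean 221 ± 107 CPM (SD, n = 3), with no overlap (382 to 452 against 105 to 315 CPM, exact permutation p = 0.0357, the smallest possible). The p-values of the 2 ranges were not adjusted. The 105 CPM rested on 5 UMIs in 21 cells of HLA→B6 mouse 2, and the 315 CPM on 33 UMIs in 28 cells of HLA→B6 mouse 3. The difference of mean log2 levels in the upper range was -1.03, a smaller value than in all cells of the label. Il18bp in the upper range was 0 to 9.10 CPM in B6→B6 mice and 8.52, 168 and 9.54 CPM in HLA→B6 mice, the value of 168 CPM resting on 8 UMIs in 21 cells.

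Below 5000 CPM, Il18 was 33.4 to 330 CPM in B6→B6 and 21.0 to 52.1 CPM in HLA→B6 mice (exact permutation p = 0.0714), and Il18bp was 0 to 204 CPM and 88.1 to 270.0 CPM (p = 0.286 by the exact permutation test). No minimum of cells was set for the 2 ranges, and B6→B6 mouse 5 entered both tests with 8 cells. Its 330 CPM rested on 4 Il18 UMIs and its 0 CPM on 0 Il18bp UMIs. The other B6→B6 mice had 33.4 to 156 CPM of Il18. Of the 1110 Il18bp UMIs of HLA→B6 alveolar macrophages, 1098 lay in this lower range, 979 of them in HLA→B6 mouse 2. The lower range also held most HLA→B6 cells, 861 against 210 in the upper range. In HLA→B6 mouse 2 it held 3625278 UMIs of all genes against 47646, with Il18bp at 270.0 CPM against 168 CPM in the upper range. In HLA→B6 mice 1 and 3 Il18bp stood at 88.1 and 102.9 CPM against 8.52 and 9.54 CPM. Depth in the lower range differed as well, with medians of 521 (the 8 cells of B6→B6 mouse 5) to 3392 UMIs per cell in B6→B6 mice and of 715.5 to 7367 UMIs in HLA→B6 mice. The part of this shift in cell makeup in the change of either gene was not tested.

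**Figure D3:**
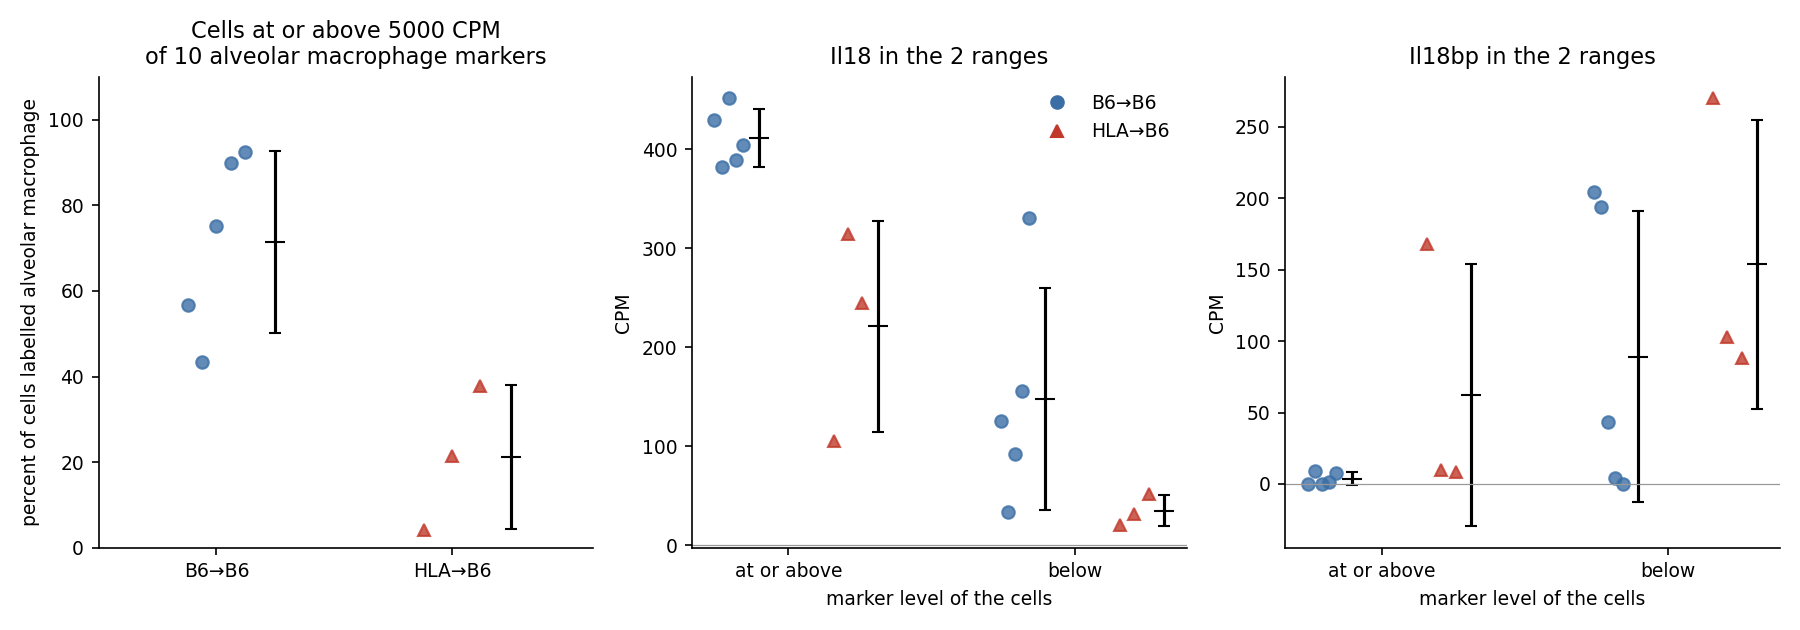
Left, percent of cells labelled alveolar macrophage at or above 5000 CPM of 10 alveolar macrophage markers. Middle and right, Il18 and Il18bp (CPM) in the cells at or above and below that level, with 1 point per mouse and bars for mean and SD. No minimum of cells was set for these points. Il18 is lower in HLA→B6 mice in the upper range, at 105 to 315 CPM against 382 to 452 CPM, and Il18bp is at 9.54 CPM or less in the upper range in all mice but HLA→B6 mouse 2.

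In monocytes Il18 did not pass the test. Their B6→B6 levels were 18.4, 40.6, 46.6, 16.3 and 17.5 CPM and their HLA→B6 levels 38.2, 39.6 and 40.5 CPM, all within the B6→B6 range (log2 fold change 0.30, SE 0.35, edgeR adjusted p = 0.999). The effect on Il18 in alveolar macrophages was lower than that in monocytes by 2.69 on the log2(CPM + 10) scale. No mouse overlapped between the groups in that difference (exact permutation p = 0.0357, the smallest possible, 0.286 adjusted over the 8 genes). Il18bp in monocytes was 0 to 3.12 CPM in B6→B6 mice and 15.8, 45.3 and 0 CPM in HLA→B6 mice, from 67 UMIs in all, and was too low for the filter.

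Outside the myeloid cells, Il18bp was found in lung structural cells, at 14.7, 27.0, 9.60, 6.32 and 10.9 CPM in B6→B6 and at 25.9, 37.7 and 4.72 CPM in HLA→B6 mice. The groups overlapped and the log2 fold change of 1.01 (SE 0.50) did not pass (edgeR adjusted p = 0.662), where 49 of 8109 genes were called (0.604%). Interstitial macrophage markers moved in the same cells: their 6 genes summed to 135 CPM (range 16.8 to 307) in B6→B6 and to 461 CPM (range 312 to 644) in HLA→B6 mice, and 3 of the 4 tested rose. Their part in the level of Il18bp there was not tested. Of the 152 Il18bp UMIs of structural cells, 84 lay in the cluster that the authors named MHC II+ endothelial cells (30.8 CPM) and 15 in Vcam1+ endothelial cells (34.7 CPM). The receptor subunits of IL-18 were measured in lymphocytes. In natural killer cells Il18r1 averaged 140.5 CPM over the B6→B6 and 161 CPM over the HLA→B6 mice (log2 fold change 0.20, SE 0.22), and Il18rap 185 and 154 CPM (-0.25, SE 0.22), with an edgeR adjusted p of 0.998 for both.

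Tnf was spread thinly. In alveolar macrophages it ranged from 3.30 to 12.1 CPM in B6→B6 and from 8.53 to 11.4 CPM in HLA→B6 mice, and in T cells from 5.37 to 24.9 CPM and from 6.80 to 11.1 CPM. It could be tested only in the sum of all cells, where the log2 fold change was 0.13 (SE 0.38, edgeR adjusted p = 0.998). At 1000 UMIs per cell, 1.17% ± 0.82 (SD, n = 5) of B6→B6 and 1.16% ± 0.34 (SD, n = 3) of HLA→B6 T cells kept a Tnf UMI, and 1.42% of all monocytes did. Of the 80 T cells with a Tnf UMI, 15 had Cd4 and 15 had Cd8a. Among T cells in general a Cd8a UMI was more common than a Cd4 UMI, as the counts given for Il10 below show. The equal counts therefore do not mean equal shares of the cells with Cd4 and the cells with Cd8a.

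Most Il10 UMIs lay in lymphoid cells. Plasma cells, of which only HLA→B6 mice 1 and 2 held at least 10, had 26.1 and 41.7 CPM of Il10, and 28 of all 172 plasma cells carried an Il10 UMI at a median of 7942.5 UMIs per cell. Thinned to 1000 UMIs, the share was 3.07%, against 0.047% of B cells. T cells had 0 to 7.59 CPM in B6→B6 and 2.12 to 12.7 CPM in HLA→B6 mice. Thinned to 1000 UMIs, 0.987% of the T cells of HLA→B6 mouse 1 kept an Il10 UMI. The shares were 0.339% and 0% in HLA→B6 mice 2 and 3 and 0 to 0.351% in B6→B6 mice. Only 3 B6→B6 mice had any Il10 UMI, so the pooled counts of Il10 rest on few mice. Among T cells with Il10, 12 of 26 had a Cd4 UMI and 3 had Cd8a, against 868 and 1858 of the 5045 T cells without. Alveolar macrophages gave 11 Il10 UMIs in all, 6 of them in B6→B6 mouse 2.

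Il12b came from few cells. In cells labelled myeloid cell it was 70.5, 64.8, 22.3, 11.9 and 0 CPM in B6→B6 and 25.7, 46.5 and 0 CPM in HLA→B6 mice, with overlapping groups (log2 fold change -0.04, SE 0.74, edgeR adjusted p = 0.999). Without cells that share a barcode the levels were 89.5, 70.0, 23.4, 12.1 and 0 CPM against 26.2, 47.8 and 0 CPM. The 91 UMIs lay in 25 of 755 cells, and all 25 also had a UMI of Ccr7, the chemokine receptor that guides mature dendritic cells to lymph nodes, against 14.1% of the 730 cells without Il12b at about the same depth (medians 3412 and 3400 UMIs). Fscn1, an actin-bundling protein of mature dendritic cells, was found in 21 of the 25, and Ccl22 in 13. A Cd209a UMI was found in 0 of the 25, which allows a share of cells with a UMI of up to 12%, and in 19.2% of the cells without Il12b. The dendritic cell list summed to 1896 CPM in B6→B6 (range 529 to 3384) and to 2384 CPM in HLA→B6 mice (range 1970 to 3031).

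**Figure D4:**
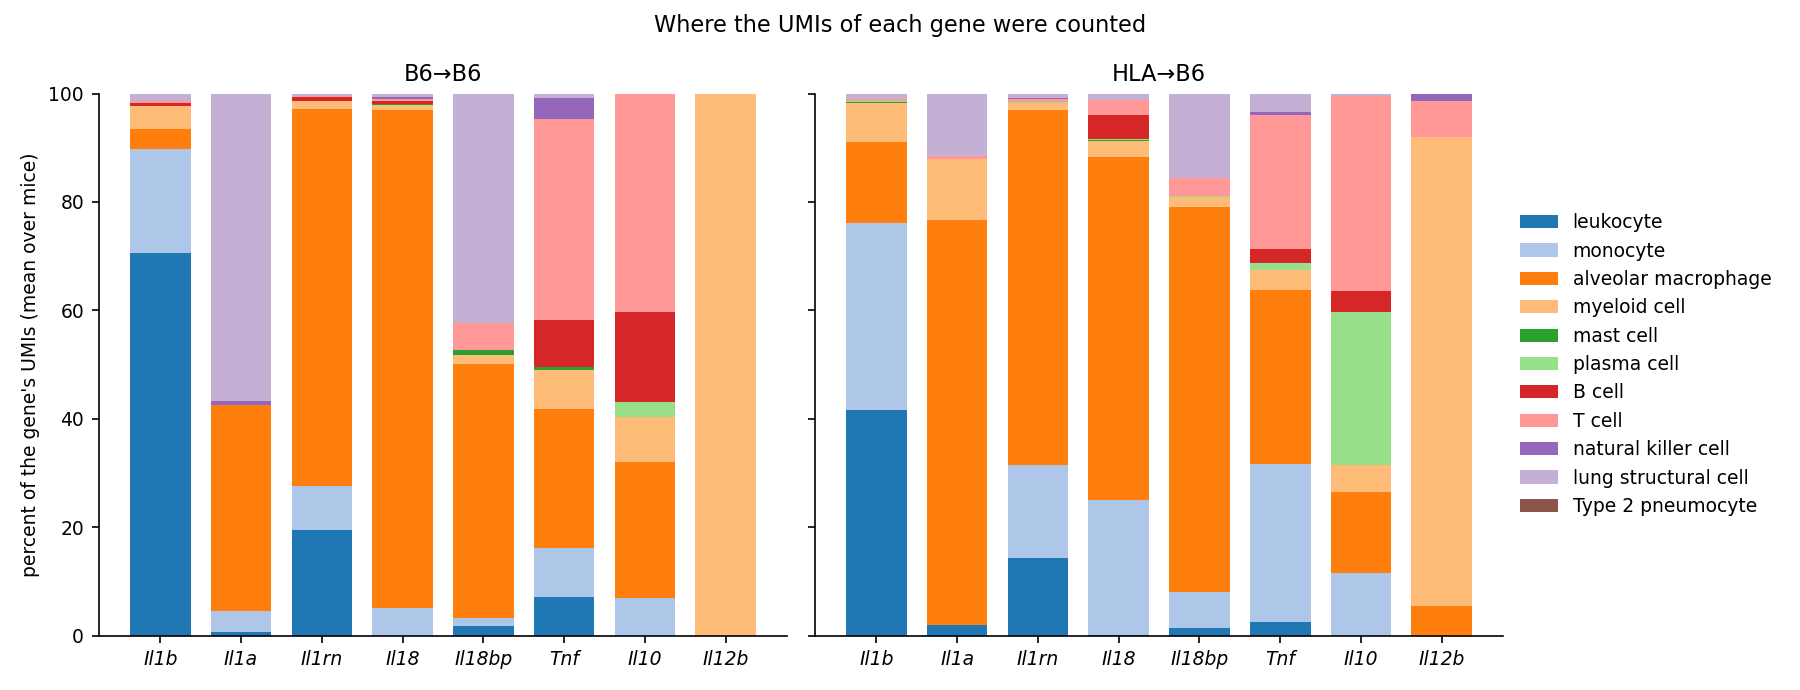
Percent of the UMIs of each gene that were counted in each cell type, as the mean over the mice that had a UMI of the gene (left B6→B6, right HLA→B6). Il1b lies mostly in cells labelled leukocyte in B6→B6 grafts (70.5%) and less so in HLA→B6 grafts (41.6%), and the alveolar macrophage share of Il18 is 91.9% and 63.2%.

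The share of UMIs joins the level of a type with its number of cells. For Il18, the share held by alveolar macrophages was 91.9% ± 6.83 (SD, n = 5) in the B6→B6 group but 63.2% ± 10.2 (SD, n = 3) after HLA→B6 transplantation (exact permutation p = 0.0357, the smallest possible, 0.143 adjusted over the 8 genes). For Il1b, neutrophil-marker cells held 70.5% ± 13.7 (SD, n = 5) and 41.6% ± 22.9 (SD, n = 3), with an exact permutation p of 0.107. Here HLA→B6 mouse 3 entered with its 5 neutrophil-marker cells. In the sum of all cells of the graft, 7 of the 8 genes could be tested and none passed, in a comparison with 0 of 11584 genes called by edgeR (0%), 815 at an unadjusted p under 0.05, and 127 called by DESeq2. Il18 was there at 68.3, 53.2, 42.5, 102.7 and 76.5 CPM against 21.5, 12.1 and 24.1 CPM (log2 fold change -1.72, SE 0.37, edgeR adjusted p = 0.244), again with no overlap. Il18bp was at 2.96 to 14.6 CPM against 18.6, 117 and 12.8 CPM (log2 fold change 2.96, SE 0.77, adjusted p = 0.329 by edgeR).

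Among 52 other genes of these pathways, 51 were in the table and 27 could be tested in alveolar macrophages, where 5 rose and 1 fell. Their median log2 fold change was 0.33, against -0.03 over all 5798 genes tested there, and 22.2% of them were called against 12.3% of all genes. The 5 that rose were Gsdmd, the pore-forming gasdermin D through which IL-1β leaves the cell (log2 fold change 1.42, SE 0.31, edgeR adjusted p = 0.0181), Casp1 (1.06, SE 0.26, 0.0258), Tnfaip8l2 (1.03, SE 0.18, 0.0084), the IL-10 receptor chain Il10rb (0.97, SE 0.19, 0.0129) and the TNF receptor Tnfrsf1b (0.71, SE 0.21, 0.0463). Nlrp3, the inflammasome sensor, fell by 1.48 (SE 0.35, edgeR adjusted p = 0.0233), from 27.6 ± 8.18 CPM (SD, n = 5) to 9.24 ± 3.21 CPM (SD, n = 3). Without HLA→B6 mouse 2, Tnfaip8l2 alone of the 6 kept an adjusted p under the threshold, and the others had 0.0527 to 0.166. Pycard, which links sensor to caspase, stood at 184 ± 69.9 CPM and 299 ± 104 CPM (log2 fold change 0.97, edgeR adjusted p = 0.071).

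**Figure D5:**
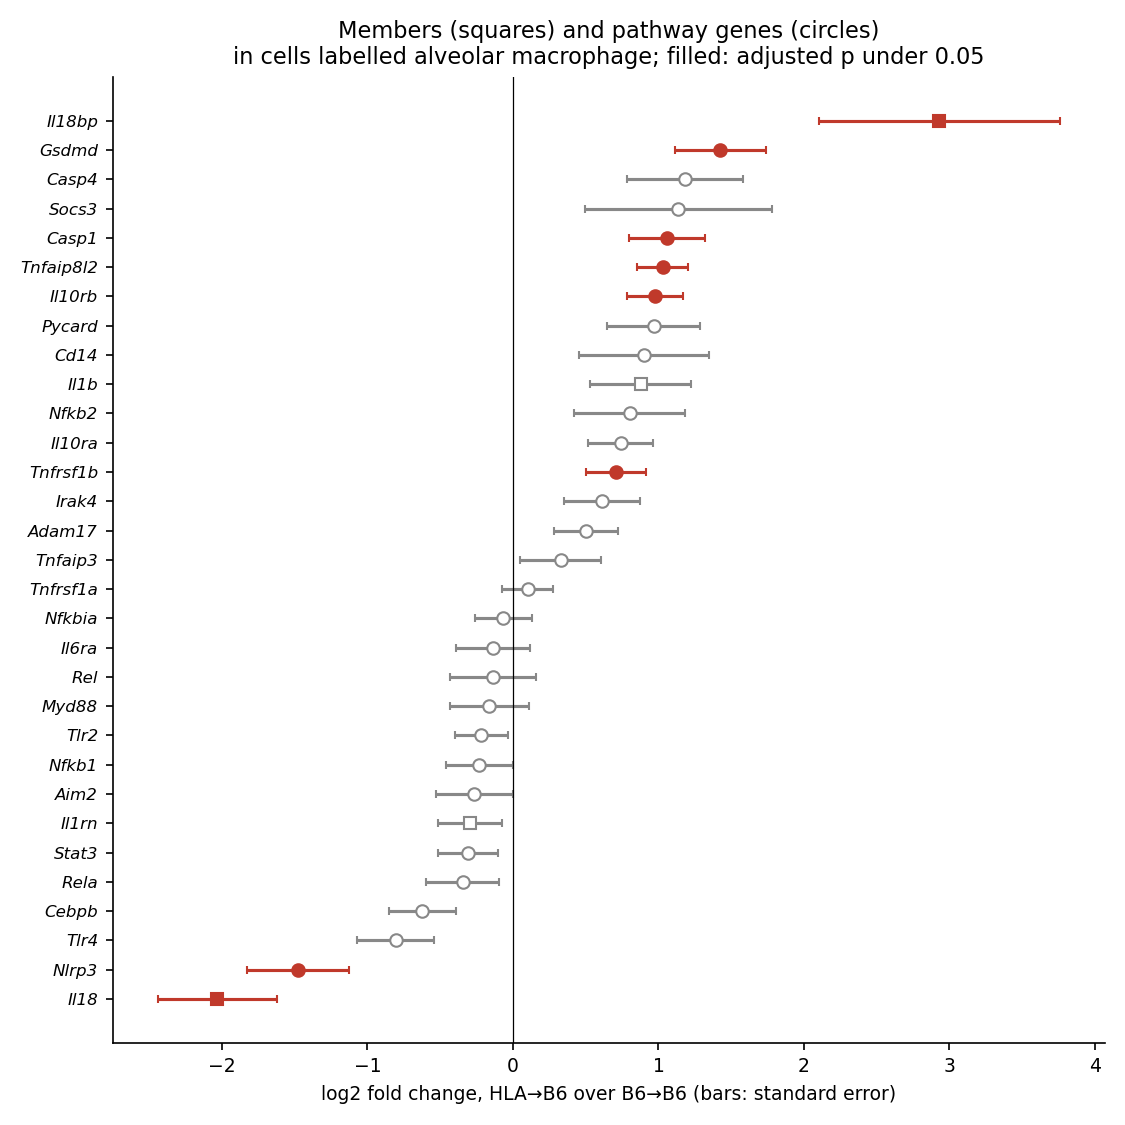
Log2 fold change of HLA→B6 over B6→B6 in cells labelled alveolar macrophage, with its standard error, for the 4 members (squares) and 27 pathway genes (circles) that passed the filter on counts. Filled symbols have an edgeR adjusted p under 0.05. Il18bp is highest at 2.93 and Il18 lowest at -2.03.

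In the other cell types no gene of the pathway list passed. In monocytes 27 were tested, and the one with the lowest adjusted p was Tlr2, a receptor for bacterial lipoproteins, at 49.0 ± 9.36 CPM (SD, n = 5) and 112 ± 4.52 CPM (SD, n = 3), with a log2 fold change of 1.19 (SE 0.22, edgeR adjusted p = 0.080). In neutrophil-marker cells the decoy receptor gene Il1r2 stood at 772 ± 328 CPM (SD, n = 5) and 1000.3 ± 53.9 CPM (SD, n = 2), with an edgeR adjusted p of 1.000. Il1r1, the signalling receptor, was tested in structural cells, at 16.3 ± 4.17 CPM and 13.7 ± 9.83 CPM (log2 fold change -0.24, edgeR adjusted p = 1.000).

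Genes whose levels ran most nearly parallel to a member were found by correlation of log2(CPM + 10) over 57 sums of a mouse and cell type, among 6067 genes. These are descriptions, since the sums share libraries and cell types. Il18 was nearest to Tfec (r = 0.94) and Ear2 (r = 0.91), the latter an alveolar macrophage marker. Il18bp was nearest to C1qb (r = 0.82), Mmp14, Cfb, Gpnmb and Ms4a7 (r = 0.78), of which C1qb and Ms4a7 stand in the interstitial macrophage list. Il1b was nearest to 1600010M07Rik (r = 0.98) and ran with the granulocyte colony-stimulating factor receptor Csf3r (r = 0.93). Il1rn was nearest to Cd33 (r = 0.96) and C5ar1 (r = 0.96). Il12b was nearest to Klk1 (r = 0.98), Siglech (r = 0.95) and Xcr1 (r = 0.93). For Il1a, Tnf and Il10 the nearest genes were Pf4 (r = 0.77), Il6ra (r = 0.70) and Jchain (r = 0.60).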

How the data were processed

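The authors prepared 10x single-cell libraries from digested left lung grafts, made UMI counts with Cell Ranger against mm10 (GRCm38), clustered the cells with Seurat and named cell types with clustifyr. The deposited counts are whole UMI counts per gene and cell, and the cell types are those of the authors' deposited annotation. The cell names number the HLA→B6 mice differently from that annotation and the sample titles. The numbers of the annotation are used here, and the group of every cell is the same either way. The authors removed free RNA with SoupX. The sources used here do not state whether the deposited counts are those before or after that step. Of the cells, 17 lay below the 200 UMIs given as the authors' minimum.

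Counts were summed per mouse and cell type. A mouse entered with at least 10 cells of a type, and a type with at least 2 mice per group. Sums were tested with the quasi-likelihood test of edgeR 4.0.16 in R 4.3.3 (TMM, filterByExpr with a minimum count of 10), and p-values were adjusted by Benjamini-Hochberg over all genes tested, at 0.05. Ratios, UMI shares and shares of cells were compared by two-sided exact permutation over mice (scipy 1.17.1). Scripts were tested on simulated counts. Alternatives were DESeq2 1.42.0, its size factors in edgeR, no filter, the replicate number or the linked libraries as a block, cells of at least 500 UMIs, each mouse left out, and leaving out 793 cells whose barcode recurs in another library, where the deepest cell stayed if it was at least 5 times as deep as any other. No doublet caller was run. Upper limits for 0 cells use 3 counts and cover counting error only.

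The members, the lists and the linked libraries were chosen with earlier results of these data known. Named genes are the members, pathway genes past the threshold, receptors, markers, and the genes with the highest correlation to a member over sums of at least 50 cells. Pycard, Tlr2 and the genes of co-detection were named after their values were seen. Promoter windows are from RefSeq (GRCm38.p6), which matched 7 of the 8 members, and gene positions from GENCODE (GRCm38).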

Additional observations from a re-analysis of the deposited data

Results flagged for a closer look

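Il1b in cells labelled myeloid cell had one B6→B6 mouse far from the other 4, at 272 CPM, and the log2 ratio of Il1rn to Il1b in those cells had one B6→B6 mouse far from the other 4, at 2.32, where that mouse had 2 Il1rn UMIs and 0 Il1b UMIs. Chance alone sets apart about 1 in 20 such groups, and 26 groups were examined. For Il18, the effect in alveolar macrophages minus that in monocytes was a log2 difference of -2.69, and the effect in cells labelled myeloid cell was higher than in alveolar macrophages by 2.81. The exact permutation p was 0.0357 for each, the smallest possible. Neither difference passed after adjustment over the 8 genes (0.286 for each). Il18 in cells labelled myeloid cell rests on 28 UMIs.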

How the results depend on the processing

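In alveolar macrophages the 712 genes called became 1083 without a filter, 283 with the replicate block and 1253 with the linked libraries as a block, and 180 to 829 when 1 mouse was left out, with 180 without HLA→B6 mouse 2. Over all cells the count of 0 became 127 with DESeq2, 7 with the replicate block and 92 with the linked block. In monocytes the count of 1 became 16 with DESeq2, 98 without a filter, 10 with the replicate block, 5 with the linked block, 2 without shared barcodes and 2 in cells of at least 500 UMIs, and 1 to 6 with 1 mouse left out. In cells labelled myeloid cell the count of 0 became 20, 153, 31 and 15 (DESeq2, no filter, replicate block, linked block), and 0 to 27 with 1 mouse left out. In cells labelled leukocyte, whose alternatives were chosen after seeing the data, the count of 0 became 26 without a filter and 1 with the replicate block, and 0 to 8 with 1 mouse left out. Causes of these moves were not tested. Same-numbered mice were not alike throughout. Their deviations correlated at -0.05, 0.35 and -0.26 in alveolar macrophage sums and at 0.34, 0.43 and -0.19 over all cells. In both, HLA→B6 mouse 2 was nearest to B6→B6 mouse 2, with which it shared 160 barcodes. HLA→B6 mice 1 and 3 were nearest to B6→B6 mice of other numbers.

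Without shared barcodes, the Il18bp effect was higher in alveolar macrophages than in monocytes by 1.69 (exact permutation p = 0.0357), against 0.94 (exact permutation p = 0.25) with all cells. With 1 mouse left out, where no exact p can pass, the difference in the Il18bp to Il18 ratio was 2.86 to 4.95 over all cells and 3.93 to 6.03 in alveolar macrophages, and the Il18 effect difference -3.03 to -2.06. Values that changed sign were all of genes or shares that did not pass. They were Il1rn over all cells (0.15, replicate block), Il12b over all cells (0.29, linked block), Il1b (0.28) and Il12b (0.36) in cells labelled myeloid cell (linked block), Il1rn in cells labelled leukocyte (-0.48, replicate block, and -0.063 without shared barcodes) and the Il10 share of T cells (12.3 percentage points without shared barcodes). With 1 mouse left out the ranges that crossed 0 were, over all cells, -0.22 to 0.12 for Il1rn, -0.047 to 0.43 for Tnf and -1.03 to 0.22 for Il12b. In cells labelled myeloid cell they were -0.95 to 0.95 for Il1b, -0.65 to 0.12 for Il12b, -0.78 to 0.95 for the Il1rn to Il1b ratio and -2.93 to 1.06 percentage points for the thinned Il1b share. For Il1rn in cells labelled leukocyte the range was -0.10 to 0.26, for the Il10 share of T cells -18.2 to 4.67 and for the Il1rn share of alveolar macrophages -14.0 to 14.1 percentage points.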
